A study of Mus musculus with 2 samples.

Results

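Transcripts of 9 interferon-induced genes were measured cell by cell in unstimulated mouse thoracic aortas: *Ifit1*, *Ifit2*, *Ifit3*, *Isg15*, *Irf7*, *Bst2*, *Ifi27l2a*, *Oasl2* and *Usp18*. They were taken by symbol from the feature list of the files, where each matched 1 of 32287 features. Captured RNA molecules, told apart by unique molecular identifiers (UMIs), were summed for each gene per aorta and cell type. A cell was counted as rich in them when 3 or more of the 9 genes were detected, and 1016 of 6539 cells of aorta 1 and 739 of 4614 cells of aorta 2 met that count.

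Both aortas came from GFPiSMC (WT) mice, which carry a tamoxifen-inducible Cre driven by the *Myh11* promoter and the mT/mG reporter, and so express GFP in smooth muscle cells (SMCs) after recombination. From an age of 3 weeks the animals received i.p. tamoxifen, 1 mg/d over 5 days, and tissue was taken at 12 weeks. Viable singlets were sorted from each cold-digested aorta without selection for GFP, and each aorta gave 1 droplet library. There was 1 group (n = 2 aortas) and neither infection nor added interferon is named in the labels, so the question that the data address is which cells of the resting aorta hold these transcripts.

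Type I interferons bind a receptor of the subunits Ifnar1 and Ifnar2, and the kinases Jak1 and Tyk2 then start a signal that ends in the nucleus, where a complex holding Stat2 and Irf9 binds interferon-stimulated response elements in the promoters of target genes. Many of the targets block steps of viral replication, others feed back on the pathway, and a low tonic expression without infection is known in many tissues. *Ifit1*, *Ifit2* and *Ifit3* encode tetratricopeptide proteins that bind viral RNA or one another. *Isg15* encodes a ubiquitin-like protein that is conjugated to other proteins, and *Usp18* encodes the protease that removes it and also dampens receptor signaling. *Irf7* encodes the transcription factor that drives interferon-α genes, *Bst2* encodes tetherin, a membrane protein that holds budding virions on the cell, *Oasl2* encodes a protein of the oligoadenylate synthetase family, and *Ifi27l2a* encodes a small membrane protein whose function is less clear.

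In the annotation of GRCm38 (GENCODE vM21) all 9 genes are protein coding. *Ifit2* (chr19:34550694-34576419), *Ifit3* (chr19:34583531-34588731) and *Ifit1* (chr19:34640871-34650009) lie close together on the plus strand of chromosome 19. *Isg15* (chr4:156199424-156200818), *Irf7* (chr7:141262706-141266481), *Bst2* (chr8:71534255-71537456) and *Ifi27l2a* (chr12:103442167-103443680) are on the minus strand. *Oasl2* (chr5:114896936-114912234) and *Usp18* (chr6:121245906-121270917) are on the plus strand. *Irf7* overlaps *Phrf1* and *Usp18* overlaps *Gm44148*, both on the opposite strand, and the sources used here do not say whether counting used strand, so reads of these pairs could not be told apart. Near copies are listed as features of their own and could share reads with a member: over all analysed cells *Ifit3b* had 405 UMIs, *Ifi27l2b* 256, *Oasl1* 160, *Ifit1bl1* 102 and *Ifit1bl2* 37. The related gene *Ifi27* had 18825 UMIs, and how many reads any of these shared with a member was not tested.

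The response element was searched in RefSeq promoter windows of GRCm38.p6 as the letters GAAANNGAAA on either strand, where N is any base. Each window ran from 250 bases before the start of the gene to 50 bases after it. The RefSeq starts differ from those of the gene models given above for *Ifit1*, *Ifit3*, *Irf7*, *Bst2* and *Oasl2*, so that the last printed bases of *Ifit1* lie inside its gene model. Windows existed for 7 members, and 4 of them (57.1%) held the letters, against 1131 of 32851 windows of all genes (3.44%) and 32 of 60 genes (53.3%) of a wider list of interferon targets. The 170 bases before the RefSeq start are shown for those 4, because the element is the known binding site of the interferon signal and the listing by symbol did not use it. Capitals mark the motif on the printed strand or, as TTTCNNTTTC, on the other strand, and capitals that run on are overlapping matches. All sequences read 5′ to 3′ on the strand of the gene.
*Ifit1*, chr19:34640719-34640888, plus strand: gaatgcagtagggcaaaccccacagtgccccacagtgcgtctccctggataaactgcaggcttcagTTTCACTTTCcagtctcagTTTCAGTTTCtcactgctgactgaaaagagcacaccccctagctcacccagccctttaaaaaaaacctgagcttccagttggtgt
*Ifit3*, chr19:34583359-34583528, plus strand: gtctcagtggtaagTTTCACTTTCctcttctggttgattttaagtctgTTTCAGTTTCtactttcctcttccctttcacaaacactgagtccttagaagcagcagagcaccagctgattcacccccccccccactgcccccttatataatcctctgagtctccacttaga
*Isg15*, chr4:156200819-156200988, minus strand: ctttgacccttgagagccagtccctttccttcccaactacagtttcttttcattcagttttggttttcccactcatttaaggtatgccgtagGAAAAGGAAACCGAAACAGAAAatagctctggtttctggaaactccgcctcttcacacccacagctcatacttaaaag
*Bst2*, chr8:71537473-71537642, minus strand: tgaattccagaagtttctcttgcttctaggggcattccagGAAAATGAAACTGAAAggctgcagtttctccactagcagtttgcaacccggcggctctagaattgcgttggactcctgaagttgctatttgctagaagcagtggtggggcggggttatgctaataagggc
*Ifit1* and *Ifit3* each had 2 separate matches, *Isg15* had 3 overlapping ones and *Bst2* had 2 overlapping ones. *Ifit2*, *Irf7* and *Oasl2* had no match to these letters in their windows. *Ifi27l2a* and *Usp18* are named only.

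Cells were assigned to types from marker genes after clustering without any interferon gene, and all names below stand for marker-based types (SMC-like, fibroblast-like and so on). Per type, 158 to 2246 cells were analysed in each aorta for the 6 types described throughout, which are SMCs, fibroblasts, endothelial cells, mesothelial cells (the cells lining the outer surface), myeloid cells and lymphocytes. Erythroid cells numbered 22 and 14. Median depth ranged from 3025.5 UMIs per cell in endothelial cells to 7718 in SMCs. Levels were scaled to 1000000 UMIs of a type (CPM), on which scale *Myh11* stood at 4786 and 4349 in SMCs of aortas 1 and 2 and at no more than 315 elsewhere, and *Pecam1*, *Msln*, *Csf1r* and *Pdgfra* were likewise highest in the type they mark. The libraries shared 18 barcodes. With 2 aortas, p-values measure the spread between the types' sums over 2 animals. A lower level in a type cannot be told apart from RNA of fewer cells within it that hold the gene, so the share of cells with a UMI is given for the highest of the 6 types and for SMCs. They are compared for 1 gene between types, not between genes, because 3′ counts depend on the transcript end. Values joined by "and" are aorta 1 and aorta 2 in that order.

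The 9 members had 52593 UMIs in the analysed cells. SMCs held the lowest level of the 6 types in both aortas for 8 of the 9 genes, the exception being *Ifit2*, for which myeloid cells of aorta 2 were marginally lower. The highest level of the 6 types differed by gene. Endothelial cells led for *Bst2*, *Ifit3* and *Isg15*, fibroblasts for *Ifit2* and mesothelial cells for *Oasl2*. Myeloid cells led for *Ifi27l2a* and *Irf7* and lymphocytes for *Usp18*. These leads are by the mean of both aortas, and some were within the spread (below). The rank of *Ifit1* between endothelial and mesothelial cells was reversed between the aortas.

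**Figure D1:**
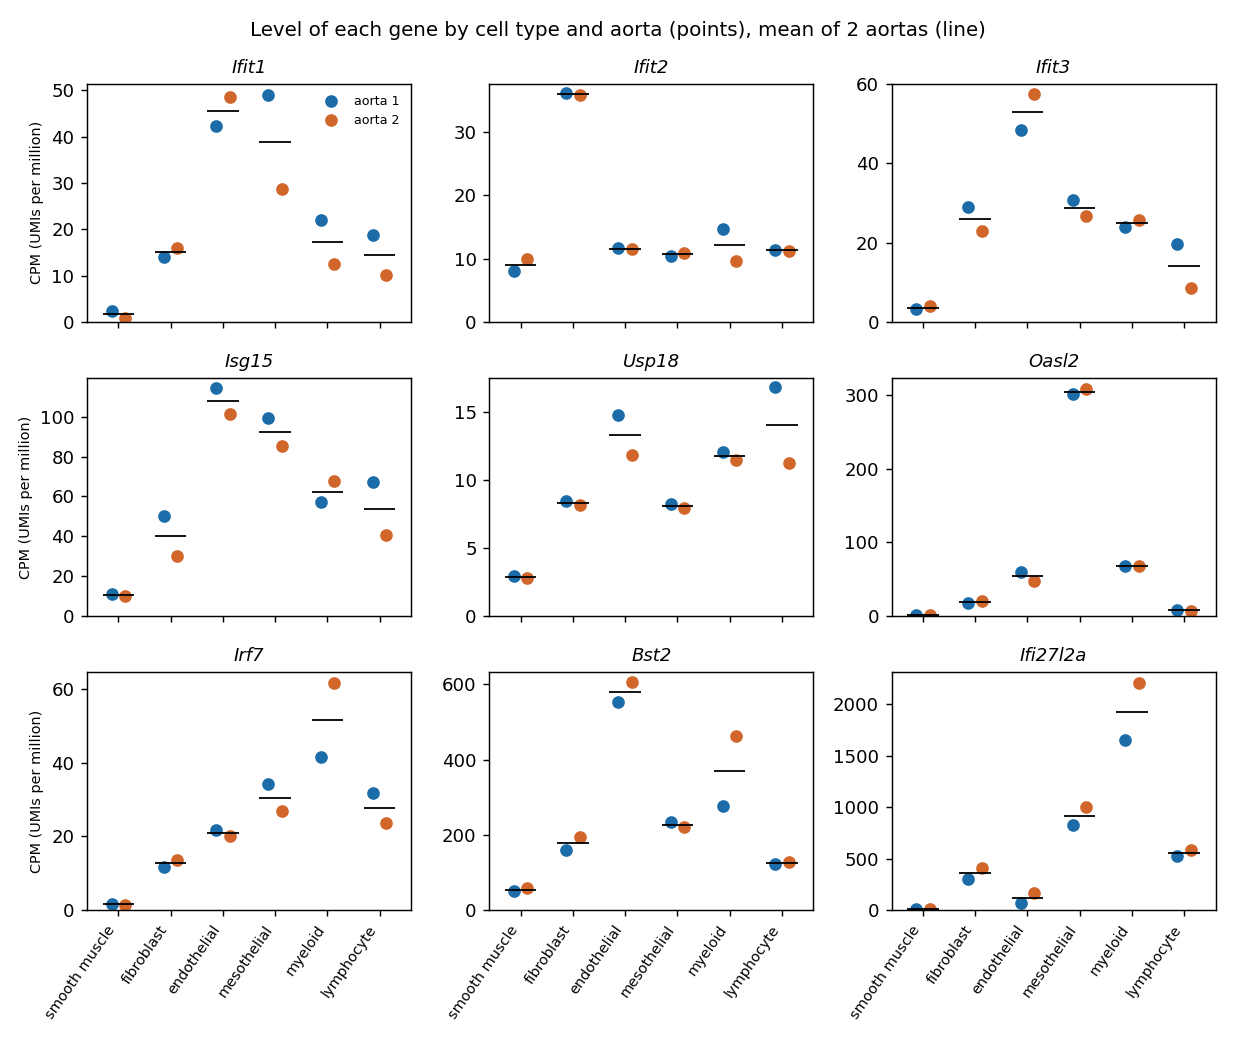
Level of each gene (CPM, vertical axis from 0) in 6 cell types, 1 panel per gene, with 1 point per aorta and a line at the mean. SMCs sit near the bottom of nearly every panel, whereas the type at the top changes from gene to gene, as with *Oasl2* at 301 and 308 CPM in mesothelial cells and *Ifi27l2a* at 1651 and 2205 CPM in myeloid cells.

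*Ifit1*, whose protein binds viral RNA lacking a host cap mark, was at 42.4 and 48.6 CPM in endothelial cells, where 9.95% and 9.45% of cells had a UMI. It was at 49.0 and 28.7 CPM in mesothelial cells, at 22.0 and 12.6 in myeloid cells, at 18.9 and 10.2 in lymphocytes and at 14.1 and 16.0 in fibroblasts. In SMCs it was at 2.44 and 0.855 CPM, from 41 and 10 UMIs, with a UMI in 0.801% and 0.493% of cells. The levels of the other 5 types lay above those of SMCs in both aortas without overlap, and in edgeR's quasi-likelihood test endothelial and mesothelial cells did not differ beyond the spread (adjusted p = 0.612). Mesothelial cells exceeded myeloid cells narrowly (log2 difference 0.84, edgeR adjusted p = 0.0231), and myeloid cells, fibroblasts and lymphocytes did not differ beyond the spread (adjusted p of 0.167 and 0.756 for the neighbours). The endothelial level exceeded that of SMCs by 4.44 ± 0.31 (log2 fold change ± SE, edgeR adjusted p = 1.03e-10), a 21.7-fold difference. Aorta 2 alone gave 5.27 and aorta 1 alone 3.73, since SMCs of aorta 2 held only 10 UMIs. Against fibroblasts the corresponding SMC difference was 2.97 ± 0.32 (edgeR adjusted p = 9.17e-08), with 3.80 in aorta 2 and 2.34 in aorta 1.

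*Ifit2*, a relative that promotes apoptosis in infected cells, had a different order. Fibroblasts were highest at 36.2 and 35.9 CPM, with a UMI in 19.1% and 18.1% of cells. Myeloid cells were at 14.7 and 9.58, endothelial cells at 11.6 and 11.5, lymphocytes at 11.5 and 11.3, mesothelial cells at 10.5 and 10.9 and SMCs at 8.03 and 9.92 CPM, the last with a UMI in 5.57% and 6.29% of cells. The fibroblast level was above all others in both aortas, and the step from fibroblasts to myeloid cells passed the test (log2 difference 1.37, edgeR adjusted p = 4.96e-07), whereas no step below did, and erythroid cells had no UMI. Fibroblasts exceeded SMCs by 1.93 ± 0.15 (3.81-fold, edgeR adjusted p = 7.99e-10). Endothelial cells (0.16 ± 0.22, edgeR adjusted p = 0.567), lymphocytes (0.34, adjusted p = 0.2) and mesothelial cells (−0.02, adjusted p = 0.985) did not pass the test against SMCs. In DESeq2 the lymphocyte difference passed (0.59, adjusted p = 0.0468). The myeloid difference from SMCs passed at 0.56 ± 0.19 (edgeR adjusted p = 0.0117) but was 0.85 in aorta 1 and −0.015 in aorta 2, and among cells of 5000 to 25000 UMIs it was 0.10 (adjusted p = 0.71).

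*Ifit3*, which stabilizes Ifit1, was at 48.4 and 57.3 CPM in endothelial cells, with a UMI in 11.7% and 11.6% of cells. Mesothelial cells held 30.9 and 26.8, fibroblasts 29.1 and 23.0, myeloid cells 24.0 and 25.7, lymphocytes 19.5 and 8.46 and SMCs 3.33 and 3.93 CPM, the last with a UMI in 1.56% and 2.40% of cells. Endothelial cells stood above mesothelial cells beyond the spread (log2 difference 0.91, edgeR adjusted p = 0.00477). Mesothelial cells, fibroblasts and myeloid cells did not differ beyond it (adjusted p of 0.932 and 0.795 for the neighbours). Against SMCs the endothelial level was 3.64 ± 0.22 higher on the log2 scale (edgeR adjusted p = 8.41e-12), and the lymphocyte level was 2.06 ± 0.30 higher (adjusted p = 4.53e-06), though by 2.39 in aorta 1 and 0.98 in aorta 2.

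*Isg15* was at 114 and 101 CPM in endothelial cells, at 99.2 and 85.2 in mesothelial cells, at 57.1 and 67.6 in myeloid cells, at 67.0 and 40.6 in lymphocytes and at 50.3 and 30.1 in fibroblasts. SMCs held 11.1 and 9.83 CPM, with a UMI in 4.36% and 4.99% of cells against 21.0% and 18.1% of endothelial cells and 28.7% and 22.8% of mesothelial cells. From endothelial cells down to lymphocytes no adjacent pair passed the test, lymphocytes and fibroblasts differed narrowly (0.53, edgeR adjusted p = 0.0467), and fibroblasts stood above SMCs by 1.87 ± 0.22 (adjusted p = 2.86e-07). Endothelial cells exceeded SMCs by 3.14 ± 0.22 (edgeR adjusted p = 1.09e-10). In erythroid cells *Isg15* reached 456 and 156 CPM, from 68 and 15 UMIs in 9 of 22 and 7 of 14 cells. In aorta 1 a single cell held 51 of the 68 UMIs, and in aorta 2 the highest cell held 5 of the 15. The largest transcript of erythroid cells, the globin *Hbb-bs*, made up 439324 and 486667 CPM, and no difference from the other types is given.

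*Usp18*, the protease that acts on Isg15 conjugates, had the fewest UMIs of the members. It was at 16.8 and 11.3 CPM in lymphocytes, 14.8 and 11.9 in endothelial cells, 12.1 and 11.5 in myeloid cells, 8.47 and 8.14 in fibroblasts, 8.27 and 7.93 in mesothelial cells and 2.97 and 2.82 in SMCs. A UMI was found in 6.30% and 4.71% of lymphocytes and in 2.05% and 1.91% of SMCs. Lymphocytes, endothelial cells and myeloid cells did not differ beyond the spread (edgeR adjusted p of 0.285 and 0.769 for the neighbours), myeloid cells exceeded fibroblasts (0.66, adjusted p = 0.0107), and mesothelial cells exceeded SMCs (1.19, adjusted p = 0.00895). Lymphocytes held 4.93 times the SMC level (2.30 ± 0.26, edgeR adjusted p = 1.4e-07). Erythroid cells had no UMI of *Usp18*, and among the other members they held 3 and 2 UMIs of *Ifit1*, 0 and 1 of *Ifit3*, 0 and 1 of *Oasl2*, 3 and 1 of *Bst2* and 7 and 1 of *Ifi27l2a*.

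*Oasl2* was sharply graded. Mesothelial cells held 301 and 308 CPM, with a UMI in 69.1% and 74.1% of cells. Myeloid cells followed at 68.7 and 68.5, endothelial cells at 59.7 and 47.9, fibroblasts at 18.0 and 21.1, lymphocytes at 8.42 and 7.33 and SMCs at 1.55 and 0.940 CPM, the last from 26 and 11 UMIs in 1.02% and 0.678% of cells. Every step of this order from mesothelial cells to lymphocytes passed the test: 1.81 from mesothelial to myeloid cells (edgeR adjusted p = 5.65e-11), 0.62 to endothelial cells (adjusted p = 0.000628), 1.35 to fibroblasts (adjusted p = 1.63e-07) and 1.20 to lymphocytes (adjusted p = 0.000198). Mesothelial cells exceeded SMCs by 7.56 ± 0.18 (edgeR adjusted p = 4.02e-18), myeloid cells by 5.76 ± 0.19 (54.1-fold, adjusted p = 1.55e-16) and endothelial cells by 5.14 ± 0.21 (35.3-fold, adjusted p = 1.08e-14). The lymphocyte difference from SMCs, 2.59 ± 0.36 (edgeR adjusted p = 1.82e-06), fell to 1.15 (adjusted p = 0.153) among cells of 5000 to 25000 UMIs.

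*Irf7* was at 41.4 and 61.6 CPM in myeloid cells, with a UMI in 13.8% and 17.1% of cells. Mesothelial cells held 34.2 and 26.8, lymphocytes 31.7 and 23.7, endothelial cells 21.7 and 20.2, fibroblasts 11.7 and 13.7 and SMCs 1.72 and 1.45 CPM, the last with a UMI in 1.25% and 0.863% of cells. Mesothelial cells and lymphocytes did not differ beyond the spread (edgeR adjusted p = 0.678), and every other step among the 6 types passed, including 1.03 between myeloid and mesothelial cells (adjusted p = 0.000367), 0.61 between endothelial cells and fibroblasts (adjusted p = 0.0298) and 2.85 between fibroblasts and SMCs (adjusted p = 5.84e-09). Myeloid cells held 32.1 times the SMC level (5.00 ± 0.22, edgeR adjusted p = 2.24e-14). Erythroid cells held 107 and 52.0 CPM of this transcription factor, from 16 and 5 UMIs.

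*Bst2* was the most widely detected gene. Endothelial cells held 554 and 606 CPM, with a UMI in 74.2% and 71.9% of cells, and myeloid cells held 276 and 464. Mesothelial cells were at 235 and 220, fibroblasts at 161 and 195, lymphocytes at 122 and 127 and SMCs at 50.1 and 59.6 CPM, the last with a UMI in 29.1% and 27.9% of cells. Endothelial and myeloid cells did not differ beyond the spread (0.38, edgeR adjusted p = 0.0523), nor did mesothelial cells and fibroblasts (adjusted p = 0.491), whereas the other steps passed. Endothelial cells exceeded SMCs by 3.19 ± 0.17, or 9.12-fold (edgeR adjusted p = 1.47e-12). The SMC level of *Bst2* was 9.04% and 9.83% of the endothelial level, whereas 8 endothelial markers, whose UMIs in SMCs can come from free RNA or from mixed droplets, stood there at 0.129% to 1.01% of theirs. These sources were not separated. A cluster of 16 and 8 cells among the SMCs was led by endothelial genes such as *Ptprb*, *Vwf* and *Pecam1*, and 0 of its cells had 3 or more members. Another SMC cluster (17 and 8 cells) was led by leukocyte genes such as *Cd74*, *Trbc1* and *C1qb*, and 1 and 0 of its cells did. Clusters led by genes of another type also lay within other types, and their cells stayed in the sums and shares. As a part of the endothelial level, the SMC level was 9.68% and 9.71% for *Isg15*, 6.89% and 6.86% for *Ifit3* and 5.75% and 1.76% for *Ifit1*.

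*Ifi27l2a* was highest in myeloid cells. Myeloid cells held 1651 and 2205 CPM, with a UMI in 87.0% and 87.2% of cells, and mesothelial cells held 825 and 1006, with a UMI in 89.8% and 86.7%. Lymphocytes were at 527 and 579.5, fibroblasts at 303 and 412, endothelial cells at 69.4 and 170.5 and SMCs at 11.1 and 11.4 CPM, the last with a UMI in 5.16% and 5.73% of cells. Mesothelial cells and lymphocytes did not differ beyond the spread (edgeR adjusted p = 0.109), and the other steps passed, the step from fibroblasts to endothelial cells being 1.72 (adjusted p = 8.57e-06). Myeloid cells held 178 times the SMC level (7.48 ± 0.32, edgeR adjusted p = 8.27e-15), and fibroblasts held 29.7 times as much (4.89 ± 0.29, adjusted p = 5.74e-12). Endothelial cells exceeded SMCs by 3.17 ± 0.29 (edgeR adjusted p = 7.04e-09), by 2.32 in aorta 1 and 3.67 in aorta 2, and most of that gap between the aortas lay in lymphatic cells (below). The SMC level was 0.674% and 0.516% of the myeloid level, where myeloid markers stood at 0.0869% to 0.320% of theirs.

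Counted over the list, 8 members were called higher in endothelial cells than in SMCs, where 26.4% of 13966 genes tested were called higher. In fibroblasts all 9 were called higher (29.2% of genes), in myeloid cells all 9 (34.0%), in lymphocytes 8 (33.9%) and in mesothelial cells 8 (21.7%). No member was called lower in any of these types than in SMCs, where 27.3%, 24.8%, 34.5%, 36.1% and 25.7% of genes were called lower in the same order of types. In DESeq2, which tested more genes and scaled them by its own size factors, the median of all genes tested lay 0.20 higher in the endothelial, 0.25 in the fibroblast and 0.26 in the lymphocyte comparison with SMCs. It called 8, 9 and 9 members higher and 0 lower in these. The median log2 fold change of the members was 3.19 in endothelial cells, 2.77 in fibroblasts, 2.83 in myeloid cells and 2.40 in lymphocytes, and the median of all genes tested lay between −0.03 and 0.06. *Ifit2* was the member not called in endothelial cells, lymphocytes and mesothelial cells. These comparisons share their SMC sums.

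Between types other than SMCs the members divided. Against fibroblasts, endothelial cells held more *Isg15* (1.27 ± 0.20, edgeR adjusted p = 2.11e-05), *Bst2* (1.58 ± 0.16, adjusted p = 6.22e-08), *Ifit1* (1.47 ± 0.25, adjusted p = 4.71e-05), *Oasl2*, *Ifit3* (0.87, adjusted p = 0.000467) and *Irf7*, 6 of 9 where 20.3% of genes were called higher. They held less *Ifi27l2a* (−1.72 ± 0.25, edgeR adjusted p = 8.57e-06) and *Ifit2* (−1.77 ± 0.19, adjusted p = 1.79e-07), 2 members where 24.3% of genes were called lower. The count of lower members was near the share of all genes. The gap in *Isg15* was 1.00 in aorta 1 and 1.62 in aorta 2, and that in *Ifit3* 0.55 and 1.19. The *Irf7* difference (0.61, edgeR adjusted p = 0.0298) did not pass in DESeq2 (adjusted p = 0.0856) or among cells of 5000 to 25000 UMIs (adjusted p = 0.494). *Usp18* (0.56, edgeR adjusted p = 0.0548) passed with the aorta as a replicate block (adjusted p = 0.0436) and with predicted doublets kept (adjusted p = 0.0225).

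Against lymphocytes, myeloid cells held more *Oasl2* (3.17 ± 0.21, edgeR adjusted p = 5.62e-11), *Ifi27l2a* (1.88 ± 0.24, adjusted p = 1.19e-06), *Bst2* (1.64 ± 0.18, adjusted p = 1.22e-07), *Irf7* (0.90 ± 0.20, adjusted p = 0.000589) and *Ifit3* (0.77 ± 0.26, adjusted p = 0.0155), 5 of 9 where 27.1% of genes were called higher. *Isg15*, *Usp18*, *Ifit1* and *Ifit2* did not pass, with log2 differences of 0.21, −0.23, 0.30 and 0.22. Both of the smaller differences were larger in aorta 2: *Irf7* differed by 0.49 in aorta 1 and 1.49 in aorta 2, and *Ifit3* by 0.39 and 1.69. *Ifit3* also did not pass in DESeq2 (adjusted p = 0.0685) or among cells of 5000 to 25000 UMIs (adjusted p = 0.552).

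Mesothelial cells were compared with each of the other types. They held more *Oasl2* (2.42 ± 0.13, edgeR adjusted p = 3.89e-12) and *Ifi27l2a* (2.88 ± 0.26, adjusted p = 1.18e-08) than endothelial cells, 2 members where 18.4% of genes were called higher. They held less *Bst2* (−1.41, edgeR adjusted p = 1.25e-06) and *Ifit3* (−0.91, adjusted p = 0.00477), 2 members where 20.4% were called lower. Compared with fibroblasts, *Isg15*, *Oasl2*, *Irf7*, *Ifi27l2a* and *Ifit1* were higher, by 1.00 to 3.78 (16.0% of genes called higher), and *Ifit2* was lower by 1.95 on the log2 scale (22.8% called lower). Compared with myeloid cells they held more *Oasl2* and *Ifit1* (25.8% of genes called higher) and less *Usp18*, *Irf7*, *Bst2* and *Ifi27l2a* (29.2% called lower). Compared with lymphocytes they held more *Oasl2*, *Bst2* and *Ifit1* (29.9% called higher) and less *Usp18* (30.1% called lower). The counts against endothelial cells, and those of members higher than in myeloid cells or lymphocytes, were near the shares of all genes.

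Within the myeloid cells, monocytes stood apart from macrophages as pooled sums of clusters named by subset markers. The monocytes pooled a cluster led by *Chil3* (24 and 13 cells) and one led by *Ace* (26 and 16 cells), which were not tested apart. The monocytes, 50 and 29 cells, held 318 and 181 CPM of *Irf7* against 26.6 and 64.8 in the 624 and 376 macrophages. For *Isg15* they held 258 and 161 against 35.7 and 59.1, and for *Ifit3* 95.9 and 51.7 against 17.2 and 24.5. The groups did not overlap for these 3 genes. In monocytes 7 members were called higher, where 9.24% of 11456 genes were, and *Bst2* and *Ifi27l2a* were not called. *Irf7* differed by 2.61 ± 0.31 (6.11-fold, edgeR adjusted p = 7.67e-08), *Isg15* by 2.26 ± 0.33 (adjusted p = 2.89e-06), *Usp18* by 2.13 ± 0.44 (adjusted p = 0.000446), *Ifit3* by 1.97 ± 0.39 (adjusted p = 0.000297) and *Oasl2* by 1.34 ± 0.27 (adjusted p = 0.000384). *Ifit1* (1.77 ± 0.59, edgeR adjusted p = 0.0304) and *Ifit2* (1.65 ± 0.59, adjusted p = 0.0435) passed more narrowly, and *Ifit1* did not pass in DESeq2 (adjusted p = 0.0908). Aorta 1 carried larger differences than aorta 2: *Irf7* 3.45 and 1.33, *Isg15* 2.73 and 1.30, *Ifit3* 2.34 and 0.92, *Ifit1* 1.83 and 0.78, *Ifit2* 1.88 and 0.47, and *Oasl2* 1.69 and 0.16.

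Dendritic cells, 28 and 25 cells, held less *Ifi27l2a* than macrophages, 459 and 382 CPM against 1905 and 2732 (−2.37 ± 0.32, edgeR adjusted p = 5.97e-07). *Bst2* (−0.93 ± 0.30, edgeR adjusted p = 0.0231) and *Oasl2* (−1.30 ± 0.47, adjusted p = 0.0427) were also lower, so that 3 members were called lower where 12.0% of genes were. *Bst2* did not pass in DESeq2 (adjusted p = 0.0754), *Ifit2* did pass there as higher in dendritic cells (adjusted p = 0.0326, against 1.39 and an adjusted p = 0.116 in edgeR), and *Oasl2* differed by −0.92 in aorta 1 and −2.20 in aorta 2.

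Neutrophils, 42 and 35 small cells with median depths of 1678.5 and 1726 UMIs, entered no test. They held 771 and 443 CPM of *Oasl2*, 730 and 458 of *Isg15*, 399 and 122 of *Ifit1* and 330 and 244 of *Ifit3*, from 56 and 29, 53 and 30, 29 and 8, and 24 and 16 UMIs. All 4 of these levels lay above those of the macrophages, dendritic cells and monocytes of the same aorta. *Bst2* had 2 and 0 UMIs in them, below the limit of 41.3 and 45.8 CPM that 3 counts allow, against 296 and 548 CPM in macrophages. *Ifi27l2a* was at 2423 and 2243 CPM, within the range of 1905 to 3136 over monocytes and macrophages of both aortas.

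Among lymphocytes, T cells held 105 and 58.8 CPM of *Isg15* and B cells 15.9 and 22.3 (−2.21 ± 0.48 in B against T cells, edgeR adjusted p = 0.000902). *Usp18* was at 27.0 and 15.5 in T cells and 3.53 and 6.69 in B cells (−2.20 ± 0.57, edgeR adjusted p = 0.00602). *Ifit1* had 46 and 11 UMIs in T cells and 3 and 2 in B cells (−2.43 ± 0.80, edgeR adjusted p = 0.0371; DESeq2 adjusted p = 0.0758). These 3 members were called lower in B cells, where 7.24% of genes were, and the differences were larger in aorta 1 (*Isg15* −2.75, *Usp18* −2.88) than in aorta 2 (−1.29 and −1.07). *Ifi27l2a* was near level, at 622 and 467 CPM in T cells and 610 and 654 in B cells. Thymocyte-like cells, which carry markers of immature T cells and were not tested, held 66.7 and 25.5 CPM of *Ifi27l2a* and no UMI of *Ifit1*, but 132 and 142 CPM of *Bst2* against 123 and 111 in T cells.

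Lymphatic endothelial cells, 46 and 75 cells, held 353 and 1055 CPM of *Ifi27l2a* against 54.2 and 74.9 in the other endothelial cells (3.25 ± 0.34, 9.53-fold, edgeR adjusted p = 4.83e-09; 2.41 in aorta 1 and 3.48 in aorta 2). This was the only member called higher there, where 7.18% of genes were. *Oasl2* had 0 and 1 UMIs in lymphatic cells against 190 and 120 in the others, a ratio of 0.0420 over both aortas with a counting interval of 0.0011 to 0.236 (edgeR adjusted p = 0.000114). *Ifit3* (1 and 6 UMIs, −1.95 ± 0.55, edgeR adjusted p = 0.0106) and *Bst2* (260 and 548 against 570 and 612 CPM, −0.75 ± 0.27, adjusted p = 0.04997) were also lower, making 3 members where 10.4% of genes were called lower. *Bst2* did not pass in DESeq2 (adjusted p = 0.194). The fitted difference of *Bst2* was −1.41 in aorta 1 and −0.49 in aorta 2, and that of *Ifit3* was −1.63 in aorta 2. In aorta 1 the lymphatic cells held too few UMIs of *Ifit3* (1) and *Oasl2* (0) for a difference of their own. *Ifit1* did not pass in edgeR, but did where no filter on low genes was used (−1.43, adjusted p = 0.0245).

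**Figure D2:**
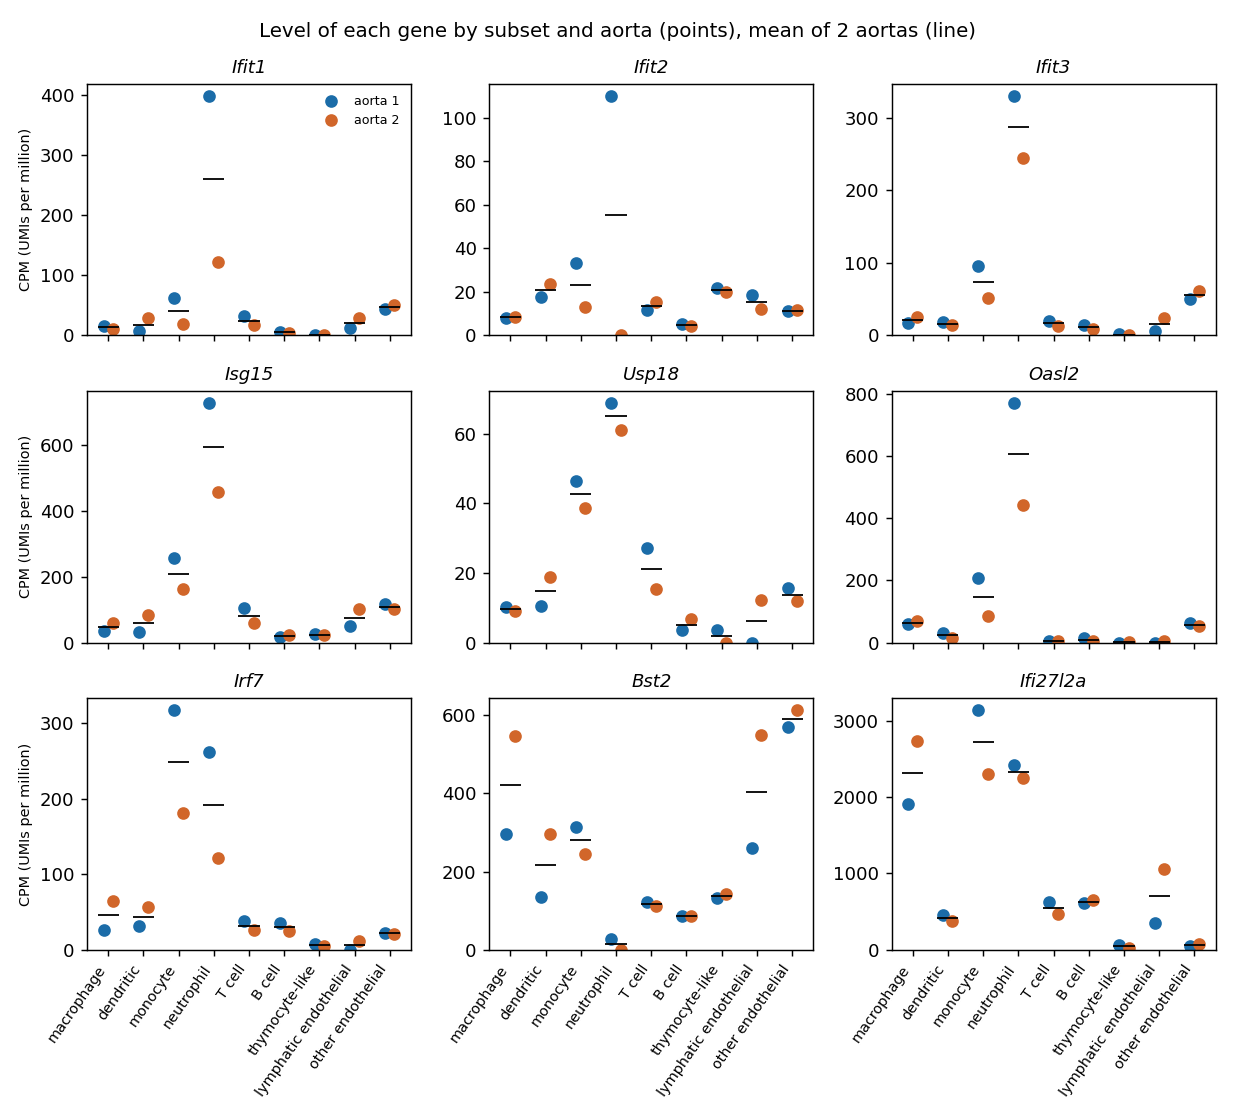
Level of each gene (CPM, vertical axis from 0) in 9 subsets of myeloid cells, lymphocytes and endothelial cells, 1 panel per gene, with 1 point per aorta and a line at the mean. Neutrophils are highest for *Oasl2* (771 and 443 CPM) and at 27.5 and 0 CPM for *Bst2*, and lymphatic endothelial cells lie above the other endothelial cells for *Ifi27l2a*.

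Fibroblasts were not uniform for *Ifi27l2a* when their 16 clusters were compared as a description. The cluster led by *Dpp4*, *Pla1a* and *Sbsn* (145 and 174 cells) held 1162 and 1095 CPM. In it, 44.1% of cells in aorta 1 and 87 of 174 in aorta 2 had 3 or more members. Its cells were deeper than all fibroblasts (median 7031 and 7423.5 against 5922 and 5739 UMIs). With every cell thinned to equal depth (below), its share was 1.38% and 4.60%, against 1.18% and 1.68% of all fibroblasts. A cluster led by *Sfrp4*, *Fn1* and *Pthlh* held 767 and 1195 CPM of *Ifi27l2a*. A cluster led by *Gpld1*, *Fhl2* and *Slc6a6* (63 and 43 cells) held 2.54 and 30.6 CPM, with 4.76% and 4.65% of cells having 3 or more members. Another, led by *Aqp1* and *Mab21l2*, held 265 and 131 CPM of *Isg15*, above the fibroblast level as a whole.

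The share of cells with 3 or more of the 9 genes was 15.5% among cells of aorta 1 (95% interval by the exact binomial method, 14.7 to 16.4) and 16.0% among those of aorta 2 (14.97 to 17.1). Intervals cover counting error only. Mesothelial cells had the largest share, 63.6% (57.7 to 69.3) and 55.1% (47.0 to 63.0), followed by myeloid cells (31.6% and 37.9%), by endothelial cells (19.6% and 16.2%) and fibroblasts (16.9% and 21.0%), whose order differed between the aortas, and by lymphocytes (13.4% and 13.3%). In SMCs it was 1.07% (0.686 to 1.59) and 1.29% (0.803 to 1.97), or 24 and 21 cells. Conversely, 59.1% and 58.9% of SMCs had no UMI of any of the genes, as did 2.55% and 1.27% of mesothelial cells. The shares include clusters led by genes of another type. For lymphocytes, 7 of 12 and 3 of 9 cells of a *C1qa* and *Lyz2* cluster had 3 or more members. So did 7 of 29 and 5 of 23 cells of one with *Mgp* and *Acta2* among its leading genes. In a myeloid cluster led by *Tagln* and *Myl9* the numbers were 7 of 34 and 3 of 11. The part of such clusters was not tested.

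Detection depends on depth, so each cell was also thinned to 1000 UMIs, which left out no cell. The share then was 2.16% and 2.25%. It was 6.54% (5.06 to 8.28) and 7.38% (5.42 to 9.78) in myeloid cells, 6.55% (3.93 to 10.1) and 3.80% (1.41 to 8.08) in mesothelial cells, 2.81% and 3.42% in endothelial cells, 2.58% and 2.49% in lymphocytes and 1.18% and 1.68% in fibroblasts. In SMCs 2 and 1 cells remained (0.0890% and 0.0617%). At equal depth the mesothelial and myeloid intervals overlapped, as did those of lymphocytes (1.48 to 4.16 and 1.15 to 4.68) and fibroblasts (0.709 to 1.83 and 1.01 to 2.61). The mesothelial intervals also overlapped those of endothelial cells (1.77 to 4.22 and 2.23 to 5.01) and lymphocytes, and in aorta 2 that of fibroblasts. Monocytes reached 64.0% and 58.6% (22.0% and 6.90% thinned), neutrophils 23.8% and 25.7% (19.0% and 14.3%), macrophages 31.9% and 38.8% (5.29% and 7.18%), T cells 19.3% and 19.9%, B cells 9.68% and 10.5% and thymocyte-like cells 0.709% and 2.44%.

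**Figure D3:**
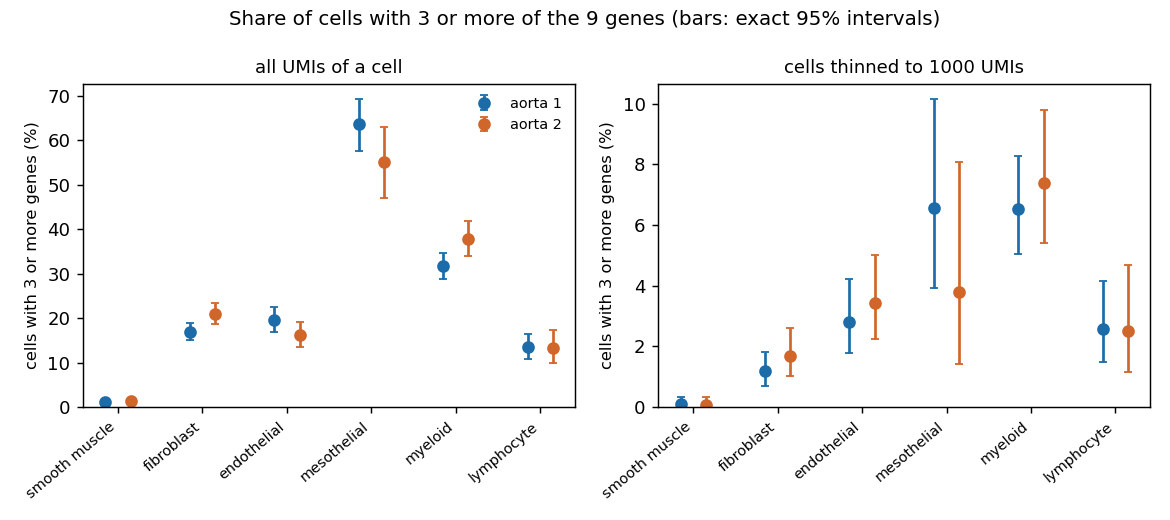
Share of cells with 3 or more of the 9 genes detected (percent, vertical axis from 0) in 6 cell types, with all UMIs on the left and after thinning each cell to 1000 UMIs on the right; points are aortas and bars are exact 95% intervals. Mesothelial cells stand at 63.6% and 55.1% on the left and at 6.55% and 3.80% on the right. There their intervals overlap those of myeloid cells, endothelial cells and lymphocytes. SMCs are lowest on both sides.

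The class of 3 or more is a range on a count and not a cell type, and many cells lay beside its limit. Exactly 2 members were detected in 394 and 230 myeloid cells and exactly 3 in 152 and 121, and in mesothelial cells the numbers were 57 and 43 against 78 and 40. In mesothelial cells *Bst2*, *Ifi27l2a* and *Oasl2* were each detected in most cells. With *Bst2* and *Ifi27l2a* left out, 3 or more members were detected in 18.2% and 15.2% of mesothelial cells. The same count gave 9.54% and 9.90% of myeloid cells and 4.83% and 4.77% of fibroblasts. The part of *Oasl2* was not tested. Over all analysed cells of both aortas, 32.4% had none of the genes, 32.2% had 1, 19.6% had 2, 8.36% had 3, 3.92% had 4 and 1.77% had 5. A further 106 cells had 6, 48 had 7, 26 had 8 and 9 had all of them.

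The 83 cells with 7 or more members, 54 in aorta 1 (0.826%) and 29 in aorta 2 (0.629%), came from all 6 types: 31 were myeloid, 16 endothelial, 14 fibroblasts, 12 mesothelial, 8 lymphocytes and 2 SMCs. These cells held 1.05% and 0.820% of all UMIs. They held 33.4% and 21.3% of the *Ifit1* UMIs, 33.29% and 18.3% of those of *Ifit3*, 23.7% and 13.1% of those of *Isg15* and 21.2% and 12.2% of those of *Usp18*. For *Bst2* the share was 4.38% and 4.03% and for *Ifi27l2a* 5.42% and 5.54%. The genes themselves define these cells, and a seldom detected gene has a large share of its UMIs in them by construction, so the shares are a description only. For *Oasl2* it was 13.3% and 9.39%, for *Irf7* 18.4% and 12.4%, and for *Ifit2* 10% and 6.11%.

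**Figure D4:**
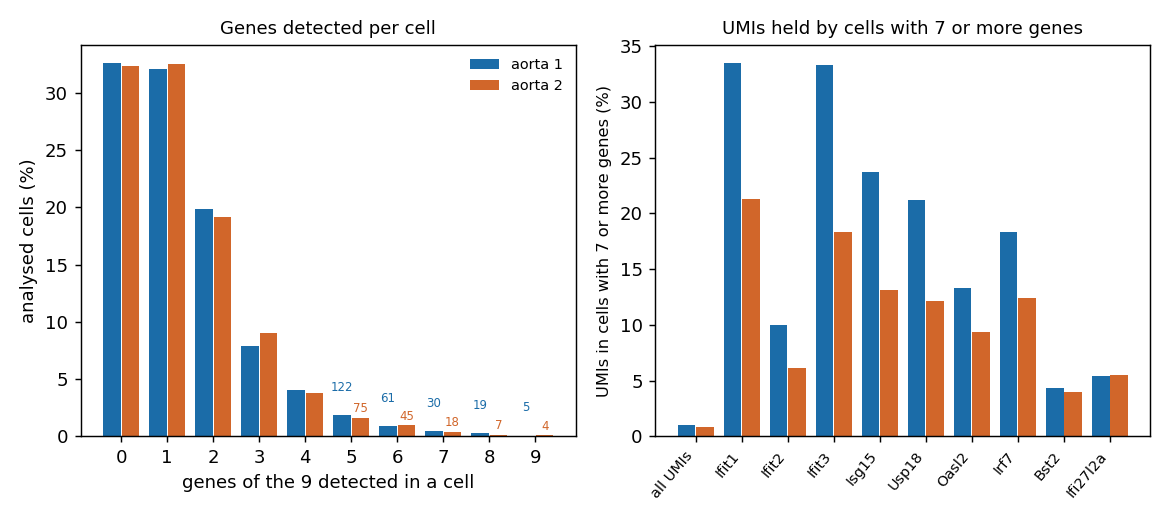
Left, percent of cells of each aorta by the number of the 9 genes detected, with the number of cells printed above bars for 5 or more. Right, percent of the UMIs of each gene, and of all UMIs, that lay in cells with 7 or more of the genes, showing *Ifit1* at 33.4% and 21.3% against 4.38% and 4.03% for *Bst2*.

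Detection of 1 member went with detection of others within a type. Of endothelial cells with an *Ifit1* UMI (78 and 69 cells), 59.0% and 59.4% also had *Isg15*, against 16.9% and 13.8% of those without. *Oasl2* was found in 39 of 78 and 28 of 69 of them against 14.2% and 8.47% of the others, and *Ifit3* in 35.9% and 42.0% against 9.07% and 8.47%. Cells with an *Ifit1* UMI were also deeper (median 4887 and 3771 UMIs against 3567.5 and 2959), and the part of depth in these shares was not tested. *Irf7* in endothelial cells was at 24.4% and 17.4% with *Ifit1* and at 6.37% and 4.84% without.

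The pattern was present in the other types with enough cells. In myeloid cells (55 and 27 with *Ifit1*) *Ifit3* was detected in 45.5% and 48.1% against 6.16% and 6.33%, and *Irf7* in 45.5% and 51.9% against 11.9% and 15.5%. In fibroblasts (84 and 62 cells) *Isg15* was detected in 38.1% and 41.9% against 9.53% and 9.15%, with median depths of 7255 and 7759.5 against 5805.5 and 5611 UMIs. In lymphocytes (30 and 12 cells) *Irf7* was detected in 46.7% and 58.3% against 9.34% and 7.74%. Mesothelial cells, in which *Oasl2* was common anyway, had it in 80.9% and 100% of cells with *Ifit1* (the latter 14 of 14) and in 66.7% and 71.5% without. In SMCs the aortas differed: 12 of 18 cells with *Ifit1* had *Isg15* in aorta 1 (66.7%, against 3.86%) but 1 of 8 in aorta 2 (12.5%, against 4.96%).

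**Figure D5:**
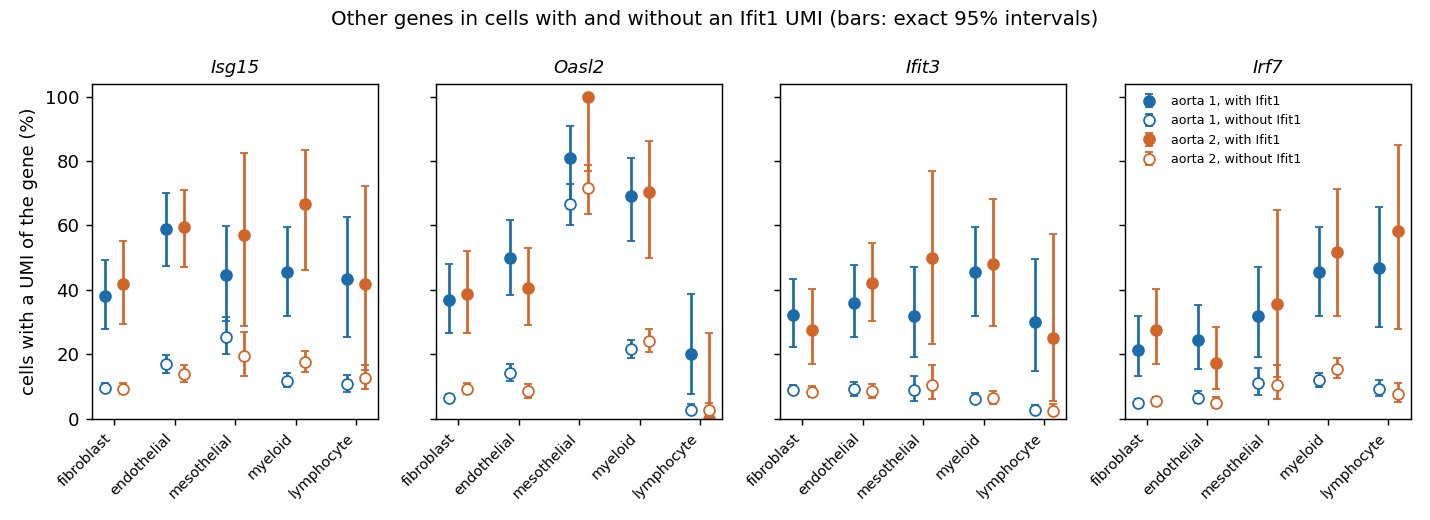
Percent of cells with a UMI of *Isg15*, *Oasl2*, *Ifit3* or *Irf7* among cells with (filled) and without (open) an *Ifit1* UMI, in 5 types and both aortas, with exact 95% intervals. In endothelial cells *Isg15* stands at 59.0% and 59.4% with *Ifit1* and at 16.9% and 13.8% without.

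Genes other than the members were then compared between cells with 3 or more members and the remaining cells of the same type, as sums per aorta. In endothelial cells 15 genes were higher and 0 lower at the adjusted threshold of edgeR (0.11% and 0.0% of 13622 genes), and 11 of the 15 belonged to the list of other interferon pathway genes. The number called depended on the setting: 4 were higher and 0 lower with the class formed after thinning, 41 and 0 in DESeq2, and 37 and 2 with the class formed on 7 members without *Bst2* and *Ifi27l2a*. *Rsad2*, the antiviral enzyme viperin, stood at 23.1 and 22.5 CPM against 1.70 and 2.51 (3.41 ± 0.60, edgeR adjusted p = 0.0111). *Rtp4* stood at 129 and 143 against 29.7 and 43.2 (1.88 ± 0.26, edgeR adjusted p = 0.000962). *Slc6a6*, a taurine transporter and no pathway gene, differed by 2.18 (edgeR adjusted p = 0.000152). In every type, cells with 3 or more members were deeper at the median, for example 5062 and 4067 against 3404 and 2853 UMIs in endothelial cells, and the part of depth in these calls was not tested. In the endothelial class myeloid markers summed to 184 and 167 CPM against 86.4 and 139, and SMC markers to 2004 and 1300.01 against 1197 and 1121, and their part was not tested either.

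In myeloid cells 35 genes were higher and 3 lower (0.257% and 0.022% of genes), and 21 of the higher ones were pathway genes, among them *Ifit3b* (3.20), *Rsad2* (2.67, edgeR adjusted p = 0.00016), *Oasl1* (2.59) and *Oas3* (2.38). *Ly6c2* (2.31, edgeR adjusted p = 6.93e-06) and *Plac8* (2.24, adjusted p = 2.72e-06), both monocyte markers, rose with them. Monocytes gave 32 of 305 and 17 of 226 myeloid cells with 3 or more members, but 50 of 964 and 29 of 596 of all myeloid cells, and their part in the calls was not tested. With the aorta as a replicate block, 61 myeloid genes were called in either direction against 38 (0.279%), and with the class formed after thinning 61 were higher and 24 lower. In SMCs 17 genes were higher and 2 lower (0.125% and 0.0147%), 9 of the higher ones pathway genes, including *Gbp3* (15 and 11 UMIs in those cells, 5.48 ± 0.48, edgeR adjusted p = 4.27e-07) and *Psmb8* (2.96). Other SMC calls rested on aorta 1: the interferon target *Rtp4* had 22 and 1 UMIs, *Nrn1* 62 and 0 and *F13a1* 29 and 1 in cells with 3 or more members. *Nrn1* is also the leading gene of an SMC cluster that gave 8 of 24 and 1 of 21 SMCs with 3 or more members, but 102 of 2246 and 39 of 1622 of all SMCs. Summed myeloid markers were at 195 and 106 CPM in those SMCs against 58.0 and 50.1 in the others. The part of the cluster and of these markers in the calls was not tested. DESeq2 called 73 SMC genes higher and 1 lower.

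In fibroblasts 246 genes were higher and 194 lower (1.81% and 1.42%), 29 of the higher ones pathway genes such as *Ifit3b* (3.25) and *Zbp1* (2.59), a sensor of unusual nucleic acids. The top of that list held genes of other kinds, led by *Mrgprg* (34.9 and 33.5 against 2.30 and 3.67 CPM, 3.56 ± 0.36, edgeR adjusted p = 3.57e-05), *Dmkn* and *Ly6d*, and also the T-cell genes *Cd3g* and *Cd3d*. The summed lymphocyte markers were at 40.2 and 62.4 CPM in these fibroblasts against 17.4 and 18.3 in the others. With the replicate block 727 fibroblast genes were called in either direction against 440 (3.23%), and with the class formed after thinning 26 were higher and 36 lower. The classes also differed in their clusters: the *Dpp4*, *Pla1a* and *Sbsn* cluster gave 64 of 273 and 87 of 238 fibroblasts with 3 or more members, but 145 of 1616 and 174 of 1133 of all fibroblasts, and its part in the calls was not tested. In lymphocytes 173 genes were higher and 79 lower (1.27% and 0.58%), against 470 and 57 in DESeq2 and 55 and 58 with the class formed on 7 members without *Bst2* and *Ifi27l2a*. Of the 173, 24 were pathway genes, and the list included the fibroblast genes *Dpt*, *Clec3b* and *Mmp3*. Fibroblast markers summed to 1190 and 2281 CPM in those lymphocytes against 262 and 408.5, and myeloid markers to 2735 and 2149 against 409 and 1090. The classes also differed in their clusters: thymocyte-like cells gave 1 of 83 and 2 of 48 lymphocytes with 3 or more members, but 141 of 619 and 82 of 361 of all lymphocytes. The part of these other-type transcripts and of the clusters in the calls was not tested.

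In mesothelial cells 6 genes were higher and 1 lower (0.044% and 0.00734%), and of the higher ones 1, *Slfn2* (4.30, edgeR adjusted p = 0.0434), was a pathway gene. With the class formed on 7 members without *Bst2* and *Ifi27l2a*, 51 mesothelial genes were higher and 0 lower. The chemokine *Cxcl13*, which attracts B cells, stood at 705 and 706 CPM against 9.55 and 95.1 (3.91 ± 0.30, edgeR adjusted p = 1.34e-07), and *Saa3*, an acute-phase protein, was also higher (3.52, adjusted p = 0.00329). A mesothelial cluster led by *Saa3*, *Cxcl13* and *Ccl2* held 20 and 5 cells, of which 19 and 4 had 3 or more members. Its cells were deep, with medians of 9162.5 and 12560 UMIs against 6609 and 6524.5 in all mesothelial cells. After thinning to equal depth, 0 and 0 of its cells had 3 or more members. Across types, *Rtp4* and *Xaf1* were called higher in 5 of the 6. In mesothelial cells they were not called, with *Rtp4* at 74.7 and 63.1 CPM against 14.3 and 30.7 (1.72 ± 0.46, edgeR adjusted p = 0.478) and *Xaf1* at 115 and 107 against 57.3 and 95.1 (0.61 ± 0.30, adjusted p = 0.971). In the same count, *Ifit3b* and *Rsad2* were among those called in 4. By number, 374 genes were called higher in 1 type, of which 20 were pathway genes, 33 in 2 types (16), 10 in 3 (7), 3 in 4 (3) and 2 in 5 (2).

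The wider pathway gave context to the members. Of 20 interferon ligand genes, 16 had no UMI among 68749218, which allows up to 3 UMIs each by the limit for a count of 0. The other 4 had 30 UMIs in all, of which 25 were *Ifng*, the type II interferon, with 18 and 6 in lymphocytes and 1 in mesothelial cells. Transcripts of 5 of 6 receptor genes were found in each of the 6 types. The exception was *Ifnlr1*, a subunit of the type III interferon receptor, which had none in endothelial cells and lymphocytes and at most 1.65 CPM elsewhere. Averaged over the aortas, *Ifnar1* ranged from 16.3 CPM in SMCs to 74.5 in myeloid cells, and *Ifnar2* from 55.8 in lymphocytes and 59.3 in SMCs to 366 in mesothelial cells.

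Of the signal transducers, *Stat2* was at 7.54 in SMCs and 23.2 to 38.7 in the other 5 types, and *Irf9*, its DNA-binding partner, was at 9.80 in SMCs and 28.5 to 65.0 elsewhere. *Irf1*, a factor induced by interferon-γ above all, was at 7.65 in SMCs and 37.1 to 77.0 elsewhere. Other genes of these lists were not lowest in SMCs: *Ptpn2*, a phosphatase that limits the pathway, was at 42.3 CPM in SMCs and 19.6 in fibroblasts, *Jak2* at 22.2 and 16.9 and *Ifngr2* at 83.1 and 53.4.

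Counted over the pathway list without the members, 83 of 96 tested genes were higher in endothelial cells than in SMCs and 4 lower (26.4% and 27.3% of all genes). The counts were 76 and 4 in fibroblasts (29.2% and 24.8% of all genes), 86 and 4 in myeloid cells (34.0% and 34.5%) and 78 and 8 in lymphocytes (33.9% and 36.1%). Their median log2 fold changes were 2.48, 1.58, 3.22 and 2.75. Among the 66 target genes, 60 were higher in endothelial cells and 0 lower, beside the same 26.4% and 27.3% of all genes. Named by size, *Sp100* stood at 192 and 176 CPM in endothelial cells against 1.49 and 1.20 in SMCs (6.83 ± 0.18, edgeR adjusted p = 1.37e-17). *Ifi44* had 77 and 76 UMIs against 1 and 0. *Epsti1* stood at 159 and 188 CPM in myeloid cells against 0.178 and 0.256 (9.58), and *Oas1a* had 127 and 132 UMIs there against none in SMCs, at least 252-fold higher. The genes lower in endothelial cells were led by the inhibitor *Socs1* (−1.79), the interferon-γ receptor subunit *Ifngr2* (−1.76, edgeR adjusted p = 7.24e-11) and *Irf5* (−1.74).

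The pathway list followed the members in some of the finer comparisons and not in others. In monocytes against macrophages 40 of 93 genes were higher and 7 lower (9.24% and 10.9% of all genes), with a median of 0.76. *Ifi44* led them on few reads (4 and 0 UMIs against 1 and 0), a ratio of 53.6 with a counting interval of 5.30 to 2639, followed by *Oas3* (3.41) and *Isg20* (2.51). In lymphatic against other endothelial cells 4 were higher and 26 lower (7.18% and 10.4% of all genes, median −0.79). *Slfn2* was higher there at 390 and 381 against 32.7 and 26.3 CPM, and *Sp100* was lower with 0 and 4 UMIs. In dendritic cells 17 were higher and 18 lower than in macrophages (10.02% and 12.0% of all genes), and in B against T cells 15 and 14 (7.48% and 7.24%). In endothelial cells against fibroblasts 58 of 96 were higher and 13 lower (20.3% and 24.3% of all genes), the lower ones led by the nucleic-acid-binding family members *Ifi204* (−3.99), *Ifi207* (−3.50) and *Ifi211* (−3.33). In myeloid cells against lymphocytes 49 were higher and 15 lower (27.1% and 23.8%), *Ifng* among the latter with 0 UMIs against 18 and 6, at least 16.5-fold lower.

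The profile of the members, the mean of log2(CPM + 1) over the 9 genes, was 6.11 and 5.97 in mesothelial cells, 5.89 and 5.97 in myeloid cells, 5.69 and 5.80 in endothelial cells, 5.16 and 5.19 in fibroblasts, 5.20 and 4.80 in lymphocytes and 2.75 and 2.65 in SMCs. Over 14 sums (7 types in 2 aortas) the genes most like it, of 11067 at 5 CPM or more, were *H2-T23* (Pearson r = 0.974), a nonclassical MHC class I gene, *Ly6e* (0.946), *Rtp4* (0.940), *Lgals9* (0.935) and *Irf1* (0.934). The reporter transgene *tdTomato* ranked 13 among the same genes (0.905). The points share libraries and type depth, SMCs lay lowest in the profile, and the coefficients are a description.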

How the data were processed

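Single-cell RNA of 2 thoracic aortas was measured with 3′ droplet libraries. The deposited values are raw UMI counts per gene and cell, which the authors made with Cell Ranger 4.0.0 from mm10 with eGFP and tdTomato added. The files held 8947 and 6263 called cells with 47009780 and 30919996 UMIs. Kept were cells of 1000 to 25000 UMIs with over 200 genes and under 10% mitochondrial UMIs (6744 and 4698, where the study gives 6278 and 4300 after its filter), and doublets called by Scrublet were removed (3.04% and 1.79%).

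Cells were clustered in scanpy 1.11.5 (2000 variable genes, 30 components, 15 neighbours, Leiden resolution 1) without interferon, reporter and mitochondrial genes, and named from markers. A name required 3 markers in at least 25% of cells, and 13 cells stayed unnamed. The resolution for subsets was chosen after cluster tables had been seen, and a cluster of low depth was kept as neutrophils by its subset markers. These names can differ from the study's.

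UMIs were summed per aorta and type (at least 10 cells in each aorta) and compared with edgeR 4.0.16 in R 4.3.3, using the quasi-likelihood test, TMM, filterByExpr and Benjamini-Hochberg adjustment over all genes, with a threshold of 0.05. The scripts were tested on simulated data. Shares have exact Clopper-Pearson intervals. Alternatives were DESeq2 1.42.0, no filter on low genes, the aorta as a block, other cell filters and counts of members, and each aorta left out. The same animal gave every type of an aorta, which pairs the sums. Deviations of same-aorta sums correlated at 0.012 to 0.223 over 15 pairs of types (median 0.098, 7240 genes).

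The members and gene lists were chosen with earlier results of these data known. All members are named. Of the pathway list (119 of 124 symbols found), the text draws on the 3 largest called log2 changes in each direction per comparison, and of the genes accompanying 3 or more members on the 10 largest rises with at least 20 UMIs. *Irf1* and the other receptor and signal genes are given as levels, and *Rtp4*, *Xaf1*, *Ifit3b* and *Rsad2* also as genes that recurred across types. Results that need an item withheld for evaluation are not reported here.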

Additional observations from a re-analysis of the deposited data

Results flagged for a closer look

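Cells that the filters left out also held the members. Of cells under 1000 UMIs, 3 or more members were detected in 0.682% (9 of 1319) in aorta 1 and 1.37% (13 of 949) in aorta 2. Of cells with a mitochondrial share of 10% or more the shares were 2.79% (22 of 788) and 1.90% (10 of 525). Predicted doublets had 30.2% (62 of 205) and 34.5% (29 of 84), and cells over 25000 UMIs had 52.2% (12 of 23) and 42.9% (3 of 7), against 15.5% and 16.0% of the analysed cells. These cells are outside every comparison, except that predicted doublets entered the setting that kept them. The last share did not exceed what a count of 0 allows among 7 cells, the others did, and the depth of these cells differs from that of the analysed ones.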

How the results depend on the processing

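The share of cells with 3 or more members at 1000 UMIs (2.21%, mean of both aortas) was 9.62% for 2 or more, 0.643% for 4 or more, 0.509% without *Bst2* and *Ifi27l2a*, 2.55% with predicted doublets kept and 15.8% without thinning. The number of genes called between cells with 3 or more members and the others of the type also moved. Under DESeq2 it was 41 in endothelial cells (15 in edgeR), 779 in fibroblasts (440), 527 in lymphocytes (252), 74 in myeloid cells (38) and 74 in SMCs (19). With 7 members, without *Bst2* and *Ifi27l2a*, it was 39, 67, 113 and 60 in the first 4 of these types and 51 in mesothelial cells (7). With the class formed after thinning it was 4 in endothelial cells, 62 in fibroblasts and 85 in myeloid cells. With the aorta as a replicate block, which uses the pairing of types within an animal, it was 727 in fibroblasts and 61 in myeloid cells. The cause was not tested. The 7-member class in SMCs and the thinned class in SMCs, lymphocytes and mesothelial cells had too few cells and were not run. The excess of *Ifit2* in myeloid cells over SMCs was the 1 member difference that reversed, at −0.015 to 0.85 with either aorta left out. Over all member differences and the settings run with both aortas, 416 kept their direction and side of the threshold, 6 came to pass and 10 no longer passed. The block changed no member call other than that of *Usp18* between endothelial cells and fibroblasts. With 1 aorta left out there is a value but no test, and 100 values stayed within the spread and 79 moved beyond it. DESeq2 changed the share of called genes that were higher from 49.2% to 64.1% (endothelial against SMC), 54.1% to 71.6% (fibroblast against SMC), 48.4% to 58.5% (lymphocyte against SMC), 53.2% to 42.1% (myeloid against lymphocyte) and 40.9% to 53.5% (lymphatic against other endothelial). Depth limits *Ifit1*, *Oasl2* and *Usp18* in SMCs and in small subsets, where levels rest on few UMIs.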
